A study of Apis mellifera with 6 samples.

Results

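The brains of haploid male honey bees were compared with those of both diploid female castes. The 2 drone libraries, out of 6 libraries in all, were set against the 4 female libraries (2 queen, 2 worker), chosen by the caste that each library's label gives. Drones were newly-eclosed haploid males, and queens and workers were newly-eclosed diploid females; all bees came from one mother queen, were collected within an hour of emergence and received no treatment. Queens had been grafted as larvae into queen cups, and drones and workers came from frames of capped comb. All were caged and placed in an incubator before emergence. Each library is poly(A) RNA-seq of a pool of 5 central brains with the optic lobes removed, and the hypopharyngeal glands, the head glands that make royal jelly proteins, were also removed from workers. Sex and ploidy changed together between these groups and cannot be told apart, and 1 colony line was sampled. The paper states that the diet of drones differs as well, and this cannot be told apart from sex here either.

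In honey bees, sex is set by the complementary sex determiner gene Csd, which must carry different alleles on both chromosomes to start the female pathway. Its product directs female splicing of Fem (feminizer), and the Fem protein directs female splicing of Dsx (doublesex), a transcription factor whose male and female forms steer sexual differentiation in insects. Unfertilised eggs hold a single Csd allele and become drones. Queens and workers share the female pathway and part later through larval feeding, so a gene that parts drones from both castes can be read separately from one that parts drones from a single caste.

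The deposited estimated counts were summed per gene of the RefSeq annotation of the Amel_HAv3.1 assembly, and levels below are CPM, which are counts scaled to a common library size, with TMM scaling of the libraries. Totals were 40453911 and 11287495 estimated counts for the drone libraries, 44373783 and 21203822 for the queen libraries, and 12432182 and 7685185 for the worker libraries. A count of 3 equals between 0.0740 CPM (queen replicate 1) and 0.421 CPM (worker replicate 2), so the fewest reads stand behind the worker values. Differences are log2 fold changes from edgeR's quasi-likelihood fit over all 6 libraries, with a Benjamini-Hochberg adjusted p-value (FDR) and a threshold of 0.05. The value after ± is the size of the log2 fold change divided by the square root of its F statistic. It stands in for a standard error and can understate the error where a group has few counts. The sex contrast is drone minus the mean of queen and worker on the log2 scale, with both castes weighted equally. A difference is called shared when drones differed from queens and from workers in the same direction, each at an FDR below 0.05.

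Of 10257 genes tested, 1468 (14.3%) were higher and 1601 (15.6%) lower in drones in the sex contrast. Of these 3069 genes (29.9% of all tested), 1695 (55.2%) held against each caste on its own. The shared genes were 775 (7.56%) that were higher in drones than in both castes and 920 (8.97%) that were lower than in both, and every one of them was also called in the sex contrast, with no overlap between the 2 drone and the 4 female libraries, as was the case for 36.8% of all genes tested. Without queen replicate 1 the shared lower genes numbered 584. The split of higher and lower calls moved with the scaling: by library totals alone 1092 genes were higher and 2172 lower in the sex contrast, and on log2(TPM + 1) with limma 778 and 3274, with 459 and 1997 shared, and the median of all genes moved to −0.10 and −0.20, beside 0.02 with TMM. A fit that took the 4 female libraries as one group, in which caste differences count as error, called 523 higher and 576 lower.

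The shared differences were often large. The smaller of the 2 log2 fold changes was over 1 in size for 365 of the shared higher and 316 of the shared lower genes, over 2 for 132 and 93, and over 3 for 42 and 32. Median log2 fold changes were 1.17 against queens and 1.17 against workers in the shared higher genes, and −0.97 and −0.80 in the shared lower genes. Within the shared genes, queens and workers themselves differed at 648 (38.2%) and passed no caste test at 1047, so that a shared direction did not always mean one female level.

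Between the castes themselves, queens were higher than workers at 1159 genes (11.3%) and lower at 988 (9.63%). Against queens alone, 1335 genes (13.0%) were higher and 1669 (16.3%) lower in drones, and against workers alone 1315 (12.8%) were higher and 1472 (14.4%) lower. Without queen replicate 1 the count lower than queens was 965, without queen replicate 2 the count higher than queens was 844, and without worker replicate 1 the count lower than workers was 964. The castes gave opposite answers at 119 genes (1.16%), at which drones lay between them: queens were above drones and drones above workers at 64, and the order was reversed at 55. This count was 74 without queen replicate 2 and 76 without worker replicate 1. Drones differed from queens only, with queens and workers also different, at 622 genes, which became 338 without queen replicate 1 and 341 without queen replicate 2. They differed from workers only, with a caste difference, at 478 genes, which became 301 without queen replicate 2 and 250 without worker replicate 1. A further 1063 genes passed against 1 caste with no call between the castes, and these can be assigned to neither class.

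**Figure D1:**
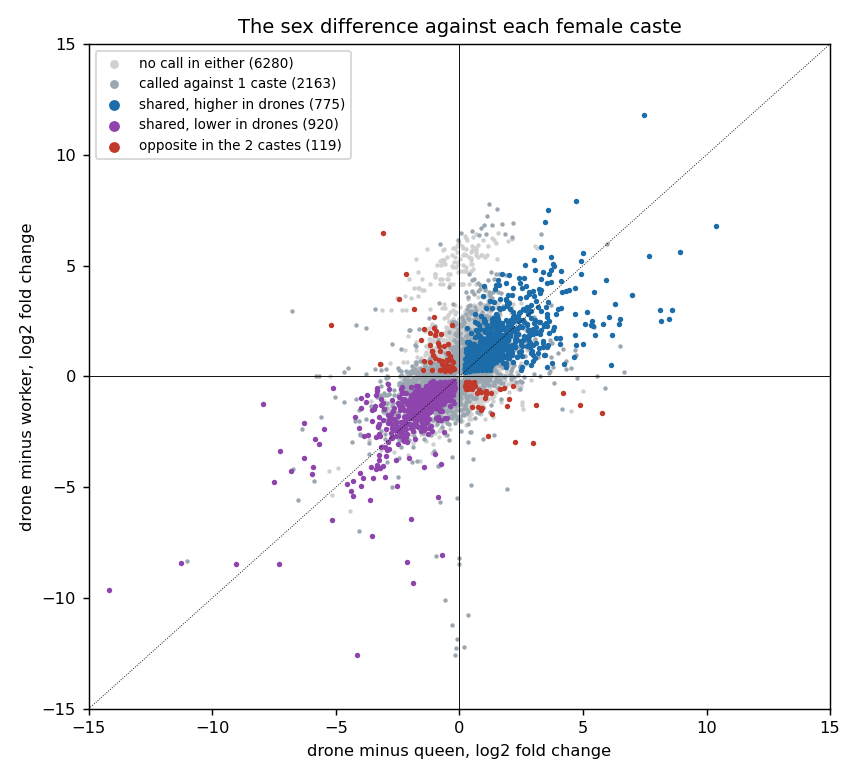
Each point is 1 of 10257 genes, with the drone minus queen log2 fold change on the x axis and the drone minus worker log2 fold change on the y axis, coloured by whether the difference was called against both castes in 1 direction, against 1 caste, in opposite directions or in neither. The 775 shared higher genes fill the upper right and the 920 shared lower genes the lower left, and the 119 opposite genes lie in the other 2 corners. Values far from 0 along a single axis include genes with a group at 0 counts, whose fitted size is not a measured fold.

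The clearest sexual difference in the sex determination pathway was in Dsx (chr5:3529523-3620990, plus strand). Its level was 19.2 and 17.7 CPM in drones, against 76.8 and 76.7 CPM in queens and 62.8 and 61.6 CPM in workers. Drones thus held less Dsx RNA than either caste, with log2 fold changes of −2.05 ± 0.10 against queens (FDR = 8.9e-08) and −1.75 ± 0.10 against workers (FDR = 4.9e-07). The transcript composition also differed by sex (FDR = 0.0069, edgeR's diffSpliceDGE). A transcript of 7 exons that holds an exon of 855 nt at chr5:3563841-3564695 had 11 and 0 estimated counts in drones, 290 and 156 in queens and 83 and 35 in workers. Its share of all Dsx counts was 1.63% (95% Wilson interval 0.911 to 2.89%) and 0% in drones, where 3 counts of 170 would allow up to 1.76% in the second library. In queens the share was 9.32% (8.35 to 10.4%) and 10.3% (8.84 to 11.9%), and in workers 10.8% (8.81 to 13.2%) and 7.97% (5.79 to 10.9%). The intervals of the drone libraries therefore lay below those of all 4 female libraries; shares and intervals here were computed from counts rounded to whole numbers and cover counting error only.

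A 6-exon Dsx transcript of 2504 nt, which skips that exon and ends at the same last exon, showed the reverse. It took 42 and 10 estimated counts in drones, 6.21% (4.63 to 8.29%) and 5.88% (3.23 to 10.5%) of the gene, and 0 counts in every female library. A count of 3 would be a share of 0.0964% and 0.197% in the queen libraries and of 0.391% and 0.683% in the worker libraries. The most abundant transcript in every library was another form, of 6 exons and 6217 nt, which also lacks the 855 nt exon and has a longer last exon. It held 92.2% and 94.1% of Dsx counts in drones, 90.0% and 89.0% in queens and 89.2% and 90.9% in workers. The form that parted the sexes without exception was thus a minor one, and its drone counts are low. Each of its exons is also in the form with the 855 nt exon, and the most abundant form skips that exon too. Its counts therefore rest on how the authors' software divided shared reads, which the intervals and floors do not cover.

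**Figure D2:**
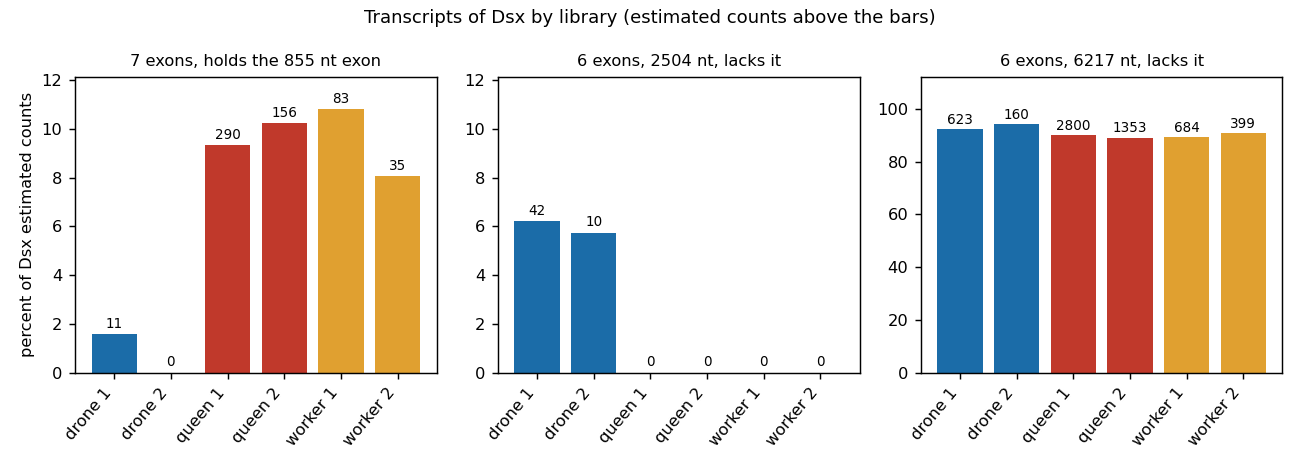
Share of the estimated Dsx counts (y axis, percent) taken by 3 of its transcripts in each library (x axis, drones, queens, workers), with the estimated counts above the bars and a separate y scale for the panel at the right. The 7-exon form reached 1.63% and 0% in drones and at least 7.97% in each female library. The 2504 nt form, which has no exon of its own, was assigned 42 and 10 counts in the 2 drone libraries and 0 in the 4 female libraries.

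Upstream of Dsx the reads were few. Csd (chr3:11771679-11781139, minus strand) had 1.22 and 1.04 CPM in drones, 0.197 and 0.202 CPM in queens and 0.491 and 0.281 CPM in workers, from 43 and 10 counts in drones, 8 and 4 in queens and 6 and 2 in workers. It was higher in drones in the sex contrast (1.99 ± 0.51, FDR = 0.014) and against queens (FDR = 0.011), and missed the threshold against workers (FDR = 0.12). Fem, its neighbour on chromosome 3 and related to it in sequence, had 2.53 and 1.14 CPM in drones, 0.543 and 0.707 CPM in queens and 0.819 and 0.842 CPM in workers; its sex contrast of 1.42 ± 0.44 (FDR = 0.032) was 0.69 (FDR = 0.476) without drone replicate 1 and was also lost when any single female library was left out (FDR between 0.0700 and 0.119). The Csd call was lost without drone replicate 1 (FDR = 0.113), queen replicate 1 (FDR = 0.0587) or queen replicate 2 (FDR = 0.0527). The deposited tables used here hold 1 placed transcript each for Csd and Fem, so their splicing could not be read here, and reads shared by these related genes were divided by the authors' software. The splicing factor gene tra2, needed for female splicing in the pathway, differed little: 168 and 175 CPM in drones, 187 and 184 CPM in queens and 198 and 207 CPM in workers, with a sex contrast of −0.18 ± 0.06 (FDR = 0.046) that was lost when any single one of the 6 libraries was left out (FDR between 0.0732 and 0.306) and with DESeq2's size factors (FDR = 0.127), and with no call for transcript usage (FDR = 0.795). Snf had at most 5 counts in any library. Of these 5 genes, 2 were higher and 2 lower in the sex contrast, beside 14.3% and 15.6% of all genes, and Dsx was the one shared by both castes.

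To determine which genes part drones most from both castes, shared genes with a mean of at least 1 CPM were ordered by the smaller of the 2 log2 fold changes. The choice also required no overlap between the drone and the female libraries, which every shared gene met. The highest on the drone side was a long noncoding RNA, LOC107964775 (chr7:3812434-3813357, plus strand), with 19.4 and 24.1 CPM in drones, 0.123 and 0.101 CPM in queens and no read in either worker library. Drones stood 7.48 ± 0.36 above queens on the log2 scale (FDR = 3.2e-07) and at least 65.2-fold above workers, taking 3 counts per library as the floor. It overlaps the protein-coding gene LOC412162 on the other strand (chr7:3807388-3813373, minus strand), which had 81 and 35 counts in drones, 0 in both queen libraries and 0 and 1 in workers. Drones had 2.30 and 3.63 CPM of LOC412162, at least 26.3-fold above queens and 57.4-fold above workers, a ratio to 1 worker count with a 95% counting interval of 10.3 to 2266. LOC412162 passed the count filter only through the drone libraries, as 31 genes did. Reads had been assigned by strand.

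LOC102655457 (chr15:4484407-4488451, plus strand) had 50.1 and 52.8 CPM in drones, from 1765 and 509 counts, against 2 and 0 counts in queens and 7 and 2 in workers. The ratio of drones to the 2 queen counts was 1553 (counting interval 430 to 12830), and drones stood 6.78 ± 0.31 above workers on the log2 scale (FDR = 9.7e-08). LOC107963964 had 510.3 and 515 CPM in drones, 8.02 and 8.79 CPM in queens and 22.3 and 28.5 CPM in workers, and LOC552024 had 226 and 238 CPM in drones, 8.29 and 6.92 CPM in queens and 6.31 and 6.31 CPM in workers. In all of these the castes were far below drones, and the same held at a lower level for LOC726206, with 2.81 and 3.43 CPM in drones, 0.123 and 0.252 CPM in queens and 0 and 0.281 CPM in workers, and LOC726251, with 4.71 and 3.63 CPM in drones, 0.0987 and 0.454 CPM in queens and 0.246 and 0.140 CPM in workers. Among all placed genes, LOC412162 and LOC409776 (76 and 10 counts in drones, 0 and 0 in queens and 3 and 1 in workers) were the 2 with at least 1 CPM in both drone libraries and at most 3 counts in each female library. Both passed the count filter through the drone libraries only, and LOC409776 was picked out after its values were seen.

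Odorant-binding proteins, small secreted carriers of odorants and other ligands, were among the named shared genes. Obp14 (chr15:1924191-1926002, plus strand) had 749.9 and 770.0 CPM in drones, 3.80 and 3.69 CPM in queens and 19.7 and 14.2 CPM in workers, a difference of 7.66 ± 0.13 from queens (FDR = 5.4e-11) and 5.45 ± 0.12 from workers (FDR = 5.3e-10). Its neighbour Obp13 had 139 and 149.5 CPM in drones, 15.6 and 10.5 CPM in queens and 0.983 and 1.40 CPM in workers, so that the caste nearer to drones was the queen for Obp13 and the worker for Obp14. Obp18 in the same stretch of chromosome 15 was also shared but small against workers: 637 and 621 CPM in drones, 8.83 and 9.29 CPM in queens and 429.7 and 462 CPM in workers, with 0.50 ± 0.07 against workers (FDR = 0.00036). Obp17 had 97.8 and 108 CPM in drones, 2.42 and 1.67 CPM in queens and 104 and 96.7 CPM in workers, and Obp16 had 25.8 and 27.0 CPM in drones, 0.888 and 1.06 CPM in queens and 27.1 and 27.6 CPM in workers, so queens were low and the drone minus worker differences of 0.03 ± 0.11 and −0.05 ± 0.16 were not called (FDR = 0.85 and 0.84).

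Across the 17 odorant-binding proteins tested, 8 were higher and 4 lower in drones in the sex contrast, against 14.3% and 15.6% of all genes, with a median of 0.37 beside 0.02 over all genes; on log2(TPM + 1) with limma the split was 6 and 6. Of these, 3 were shared higher and 1 shared lower. The shared lower one, Obp2, which passed the count filter through female libraries only, had 3 and 0 counts in drones, 10 and 8 in queens and 271 and 178 in workers, and workers exceeded drones 353-fold (counting interval 121 to 1710) and queens exceeded drones 4.86-fold (1.66 to 23.6). Obp3, next to it on chromosome 9, and Obp21 gave opposite answers in the castes. Obp3 had 68.0 and 68.3 CPM in drones, 401 and 346 CPM in queens and 5.49 and 6.74 CPM in workers, and Obp21 had 2.04 and 2.39 CPM in drones, 0.765 and 1.26 CPM in queens and 14.3 and 14.2 CPM in workers.

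Cuticle proteins, which form the insect exoskeleton, had the largest summed level in drones of the gene lists used here. It was 118383 and 121721 CPM, most of it from CPF2 and CPR5. CPF2 alone had 80465 and 82611 CPM in drones, 2438 and 2378 CPM in queens and 15401 and 16158 CPM in workers, a log2 difference of 5.08 ± 0.12 from queens (FDR = 4.7e-10) and 2.37 ± 0.11 from workers (FDR = 8.4e-08). CPF1, beside it on chromosome 15, had 391 and 429.9 CPM in drones, 8.07 and 6.21 CPM in queens and 78.5 and 80.5 CPM in workers, and CPR5 on chromosome 16 had 27985 and 29349 CPM in drones, 3691 and 3384 CPM in queens and 5230.0 and 5402 CPM in workers. In each of these the drones were highest, workers next and queens lowest. Of 23 cuticle genes tested, 11 were higher and 3 lower in drones in the sex contrast, and 9 and 2 were shared. The median was 1.26 beside 0.02 over all genes. Of all genes 14.3% were higher and 15.6% lower, and 7.56% and 8.97% shared, so the lower counts were near the shares of all genes. On log2(TPM + 1) with limma 9 were higher and 3 lower, with a median of 0.18 beside −0.20 over all genes. CPR27 (1211 and 1288 CPM in drones, 17.9 and 16.8 CPM in queens and 323 and 361 CPM in workers) and Cpap3-c (379 and 404 CPM in drones, 52.7 and 54.7 CPM in queens and 153 and 158 CPM in workers) were among those higher, as were Apd-1, Apd-3, Cpap3-b and Cpap3-d. CPR22 and CPR28 were lower than in both castes: CPR22 had 11.4 and 13.0 CPM in drones, 60.03 and 52.9 CPM in queens and 18.1 and 32.0 CPM in workers.

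The cuticle genes took 11.3% and 11.4% of the gene counts of drones, 0.780% and 0.767% of those of queens and 2.61% and 2.63% of those of workers. Cuticle is made by epidermis and not by brain cells, and these shares move with the sex contrast. Their part in the other results was not tested. When the 10 most abundant genes, CPF2 and CPR5 among them, were removed before the fit, 1598 of the 1695 shared genes (94.3%) were again shared. This step changed the scaling and left 21 cuticle genes in the fit, so it cannot test the part of RNA from other tissue.

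Of the 4 opsin genes tested, 1 was called in the sex contrast, near the 29.9% of all genes. It was Blop, the blue-sensitive opsin (chr14:10150063-10152653, plus strand), which had 1008 and 1103 CPM in drones, 11.5 and 11.7 CPM in queens and 173 and 177 CPM in workers, a log2 difference of 6.51 ± 0.09 from queens (FDR = 2.2e-11) and 2.59 ± 0.08 from workers (FDR = 4e-09). Lop1, the long-wavelength opsin, instead placed drones between the castes, with 1326 and 1488 CPM in drones, 552 and 573 CPM in queens and 4615 and 4610.4 CPM in workers, so its sex contrast of −0.20 was not called (FDR = 0.065). Uvop and Lop2 were below 2 CPM in every library and not called. Outside this list, the named shared gene Eyg, whose fly counterpart eyegone is a transcription factor needed for eye growth, had 24.1 and 26.0 CPM in drones, 3.36 and 4.29 CPM in queens and 3.19 and 2.39 CPM in workers and differed from queens by 2.72 ± 0.22 (FDR = 6.2e-06) and from workers by 3.13 ± 0.25 (FDR = 5.4e-06). The 4 photoreceptor markers were these opsins, and their summed level was 2336 and 2592 CPM in drones, 564 and 586 CPM in queens and 4791 and 4790.4 CPM in workers, with a median sex contrast of −0.13. Retained pieces of retina or ocelli in the dissections were not tested. In pooled tissue, fewer cells of a type and less RNA per cell cannot be told apart, here and in all that follows.

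**Figure D3:**
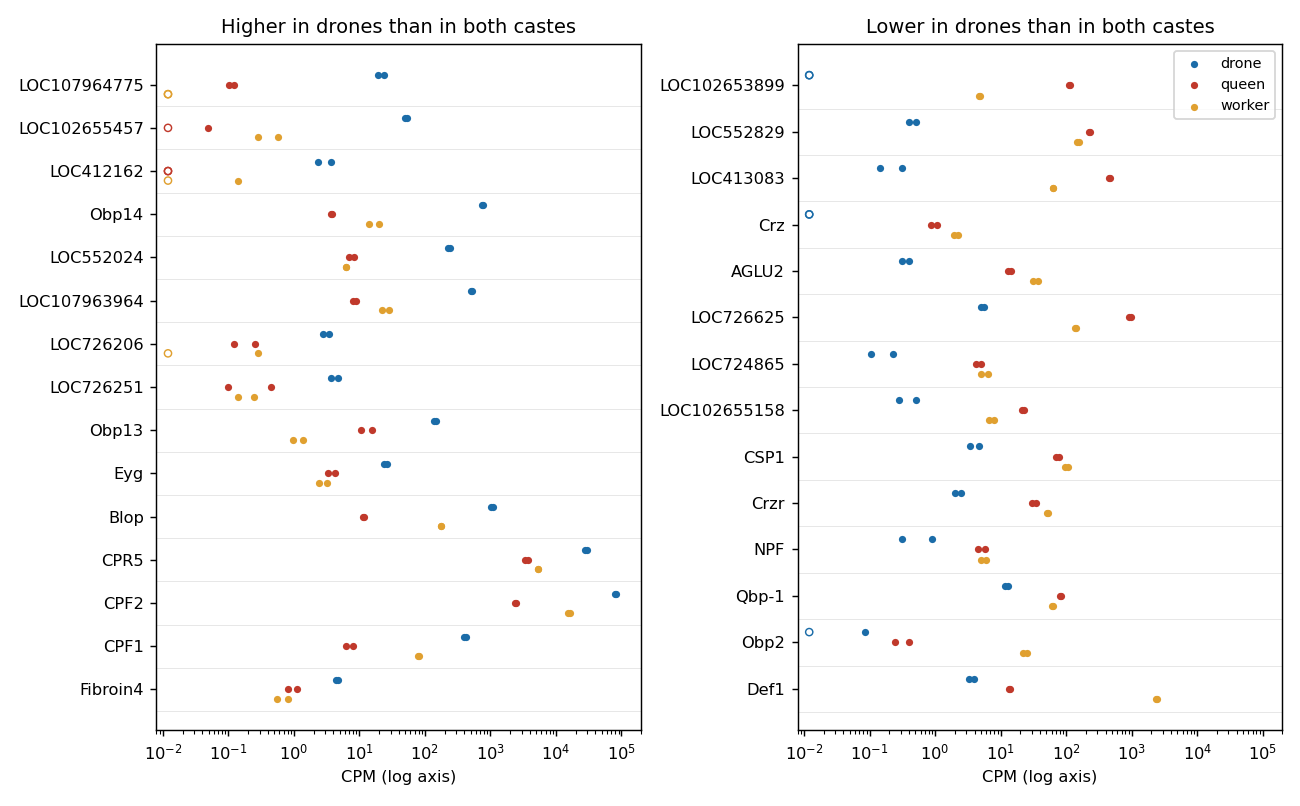
Level of each named shared gene in CPM (log x axis) in the 2 drone, 2 queen and 2 worker libraries, for genes higher (left) and lower (right) in drones than in both castes, ordered by the smaller of the 2 fold changes; open circles at the left edge mark libraries with 0 counts. Drone points lie outside the female points in all 29 genes, as the choice of these genes required. In many of them, such as Blop and Def1, the castes stand apart from each other as well.

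On the female side, LOC102653899 (chr13:10551323-10554522, plus strand) was not seen in drones, with 0 counts in both libraries, against 4414 and 2243 counts in queens and 58 and 35 in workers. Its 109 and 113 CPM in queens and 4.75 and 4.91 CPM in workers put drones at least 560-fold below queens and at least 24.4-fold below workers. It was the single placed gene with at least 1 CPM in all female libraries and at most 3 counts in each drone library, and it passed the count filter through the female libraries only. LOC413083, the next gene on chromosome 13, had the same order, with 0.142 and 0.311 CPM in drones, 467 and 445 CPM in queens and 63.3 and 62.9 CPM in workers, and differed by −11.27 ± 0.16 from queens (FDR = 2.2e-11) and −8.41 ± 0.17 from workers (FDR = 3.4e-10). The drone values of LOC413083 rest on 5 and 3 counts, so these ± values understate the error. Close by, LOC724946 (CYP6AS11, of the P450 family of oxidising enzymes) went the other way, with 6.42 and 7.06 CPM in drones, 0.913 and 0.606 CPM in queens and 1.64 and 1.82 CPM in workers. Neighbours at 1 locus thus parted the sexes in both directions, and the castes differed in level at the 2 female-high ones.

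LOC552829 (chr13:1224088-1227482, plus strand) had 0.398 and 0.519 CPM in drones, 219.7 and 229 CPM in queens and 148 and 155 CPM in workers, and LOC726625 on chromosome 8 had 4.97 and 5.61 CPM in drones, 984 and 897 CPM in queens and 138 and 142 CPM in workers. The noncoding RNA LOC102655158 lies within the span of LOC726625 on the other strand and had 0.284 and 0.519 CPM in drones, 21.4 and 22.7 CPM in queens and 8.03 and 6.59 CPM in workers. LOC724865 had 0.227 and 0.104 CPM in drones, 5.08 and 4.14 CPM in queens and 6.47 and 5.05 CPM in workers. Both drone libraries lay below all 4 female libraries at each of these genes, as at every shared lower gene. AGLU2 (chr6:4618778-4626779, plus strand), an alpha-glucosidase with the synonym Hbg1, had 0.398 and 0.311 CPM in drones, 14.2 and 13.1 CPM in queens and 31.6 and 36.9 CPM in workers, a difference of −5.16 ± 0.25 from queens and −6.49 ± 0.25 from workers (FDR = 1.1e-07 and 3.2e-08). Hbg3, its neighbour, was lower too (35.6 and 35.9 CPM in drones, 57.1 and 51.5 CPM in queens and 208 and 201 CPM in workers), while Hbg2 on chromosome 8 was higher (2.84 and 3.74 CPM in drones, 0.814 and 1.01 CPM in queens and 0.819 and 0.561 CPM in workers). CSP1, a chemosensory protein, had 3.44 and 4.67 CPM in drones, 79.2 and 71.0 CPM in queens and 106 and 94.9 CPM in workers; of 5 chemosensory proteins tested, 3 were lower in drones in the sex contrast, beside 15.6% of all genes (median −0.90), and CSP1 was the one shared by both castes. The CSP3 call was lost when any single library other than worker replicate 2 was left out (FDR between 0.0782 and 0.261), and the CSP4 call without drone replicate 1 (FDR = 0.0782) or queen replicate 1 (FDR = 0.101). Qbp-1 had 12.8 and 11.6 CPM in drones, 81.1 and 83.9 CPM in queens and 61.9 and 63.3 CPM in workers.

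Of 11 neuropeptide and receptor genes tested, 7 were lower and 1 was higher in drones in the sex contrast (6 and 1 shared), and 3 were not called, with a median of −1.28; of all genes 15.6% were lower and 14.3% higher (8.97% and 7.56% shared). Crz and Pburs, of which Crz was called, passed the count filter only through female libraries, as 231 genes did. Corazonin (Crz, chr1:25171162-25173330, plus strand), a neuropeptide linked to caste behaviour in ants, had 0 counts in both drone libraries, 35 and 21 counts in queens and 27 and 14 in workers, which puts drones at least 4.85-fold below queens and at least 10.5-fold below workers. Its receptor Crzr had 2.04 and 2.49 CPM in drones, 29.8 and 35.0 CPM in queens and 51.4 and 52.9 CPM in workers, a log2 difference of −3.88 ± 0.17 from queens (FDR = 4.9e-08) and −4.57 ± 0.18 from workers (FDR = 2.7e-08). Neuropeptide F (NPF), a feeding-related peptide in flies, had 0.909 and 0.311 CPM in drones, 5.80 and 4.54 CPM in queens and 5.08 and 6.03 CPM in workers, and Tk, the tachykinin precursor, had 81.9 and 75.3 CPM in drones, 208 and 195 CPM in queens and 303 and 371 CPM in workers. Pban, the precursor of pheromone biosynthesis activating neuropeptide, had 2.58 and 3.53 CPM in drones, 13.5 and 11.5 CPM in queens and 8.19 and 9.26 CPM in workers, and SIFR, the SIFamide receptor, had 301 and 305 CPM in drones, 692 and 668 CPM in queens and 407 and 433 CPM in workers. All 4 were lower than in both castes. Akhr, the receptor of adipokinetic hormone, which mobilises stored fuel, was the exception, with 17.5 and 17.0 CPM in drones, 7.38 and 7.78 CPM in queens and 3.11 and 4.63 CPM in workers and a sex contrast of 1.69 ± 0.19 (FDR = 5.8e-05). Brain cell markers were also summed. The 13 neuron markers summed to 1806 and 1663 CPM in drones, 2756 and 2613 CPM in queens and 1746 and 1984 CPM in workers. Of these, 2 were higher and 4 lower in drones in the sex contrast (median −0.22). The 4 glial markers summed to 3191 and 3316 CPM in drones, 4715 and 4678 CPM in queens and 4069 and 4424 CPM in workers. Among the glial markers 1 was higher and 1 lower, and their median was 0.41, opposite in direction to the lower drone sum. The part of both marker lists in the neural gene lists was not tested.

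Of 11 genes of amine signalling tested, 6 were lower and 1 was higher in drones in the sex contrast (4 and 1 shared), and 4 were not called, with a median of −1.04; beside them stand 15.6% lower and 14.3% higher (8.97% and 7.56% shared) of all genes. DESeq2's Wald test called 4 lower and 1 higher. DopR2, a dopamine receptor (chr15:6339308-6402471, plus strand), had 40.1 and 43.3 CPM in drones, 139 and 141 CPM in queens and 153 and 157 CPM in workers, with −1.76 ± 0.08 against queens and −1.90 ± 0.08 against workers (FDR = 4.3e-08 and 4.6e-08). Dop1, another dopamine receptor, had 64.2 and 66.3 CPM in drones, 211 and 191 CPM in queens and 193 and 209 CPM in workers, and the queen minus worker difference of 0.00 ± 0.08 was not called (FDR = 0.99). The serotonin receptor 5-HT1 had 123 and 126 CPM in drones, 340.5 and 327 CPM in queens and 240.3 and 274 CPM in workers, and TyHyd, the tyrosine hydroxylase that makes the dopamine precursor, had 92.5 and 110.5 CPM in drones, 159 and 156 CPM in queens and 161 and 169.6 CPM in workers. The gene higher than in both castes was Dat (2.75 and 2.91 CPM in drones, 0.716 and 0.656 CPM in queens and 0.737 and 0.842 CPM in workers; sex contrast 1.93 ± 0.35, FDR = 0.0018).

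Of 8 ion channel genes tested, 4 were lower in drones in the sex contrast and shared by both castes, beside 15.6% lower and 8.97% shared lower of all genes, and 4 were not called (median −0.62). Cac, a voltage-gated calcium channel, had 500.2 and 484 CPM in drones, 1074 and 989.8 CPM in queens and 956 and 1053 CPM in workers and differed by −1.07 ± 0.08 from queens and −1.03 ± 0.08 from workers (FDR = 2.7e-06 and 4.6e-06). LOC100578899 (Cav1a), a further calcium channel, differed by −1.08 and −1.06, Amih, the hyperpolarisation-activated channel, by −1.16 and −0.44, and LOC551454 (Cava2d3) by −0.74 and −0.69. Of 8 synapse genes tested, 4 were lower, 3 of them shared, and 4 were not called (median −0.41). AChE-2, an acetylcholinesterase (965 and 949 CPM in drones, 3669 and 3496 CPM in queens and 1802 and 1897 CPM in workers), brp, a scaffold of the presynaptic active zone (638 and 554 CPM in drones, 1143 and 1089 CPM in queens and 716 and 879 CPM in workers), and NLG-5, a neuroligin (35.6 and 35.5 CPM in drones, 72.3 and 63.5 CPM in queens and 46.5 and 52.3 CPM in workers), were lower than in both castes. Nrx-1, at no more than 2.5 CPM, was lower in the sex contrast (FDR = 0.032), a call that each of 5 single libraries ended when left out, with FDR between 0.0604 and 0.0985; it stayed without drone replicate 1. The summed levels of the neuron and glial markers given above stand beside these counts too, and their part was not tested. The neuron markers include brp and subunits of the acetylcholine receptor. Their sum is therefore not separate from the synapse genes here or from the receptor genes that follow.

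Of 17 receptor genes for fast transmitters, 3 were higher and 5 lower in drones in the sex contrast (2 and 3 shared), and 9 were not called, beside 14.3% higher and 15.6% lower (7.56% and 8.97% shared) of all genes. The median was −0.30, and on log2(TPM + 1) the split was 1 and 10. The acetylcholine receptor subunits nAChRa6 (36.8 and 34.9 CPM in drones, 133 and 130.5 CPM in queens and 115 and 128 CPM in workers) and nAChRa7 (111 and 104 CPM in drones, 347 and 333 CPM in queens and 142 and 154 CPM in workers) and the glutamate receptor Nmdar1 (289.9 and 311 CPM in drones, 438 and 422 CPM in queens and 516 and 559 CPM in workers) were lower in drones than in both castes. Subunits nAChRa3 (291 and 308 CPM in drones, 226 and 220.1 CPM in queens and 220.0 and 222 CPM in workers) and nAChRa4 (88.3 and 89.1 CPM in drones, 55.1 and 52.7 CPM in queens and 50.2 and 56.3 CPM in workers) were higher than in both, by 0.43 ± 0.06 and 0.73 ± 0.08 (FDR = 0.00021 and 3.2e-05); for nAChRa3 the difference was 0.07 and not called on log2(TPM + 1) with limma (FDR = 0.312). Subunit nAChRa1 lay between the castes, with 478 and 422 CPM in drones, 683 and 599 CPM in queens and 316 and 356 CPM in workers.

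Of 12 hormone genes tested, 1 was higher and 3 were lower in drones in the sex contrast (1 and 2 shared), and 8 were not called, beside 14.3% higher and 15.6% lower (7.56% and 8.97% shared) of all genes. The median was 0.15, and −0.20 on log2(TPM + 1). LOC724216 (jhamt, juvenile hormone acid methyltransferase, a late enzyme of hormone synthesis) had 12.9 and 14.2 CPM in drones, 147 and 128 CPM in queens and 93.5 and 83.6 CPM in workers, a difference of −3.36 ± 0.11 from queens and −2.73 ± 0.11 from workers (FDR = 4.4e-09 and 4.3e-08). Jhe, the esterase that breaks the hormone down, had 90.7 and 91.7 CPM in drones, 57.3 and 57.3 CPM in queens and 19.7 and 23.4 CPM in workers and a sex contrast of 1.38 ± 0.08 (FDR = 5.1e-07). Ecr, the ecdysone receptor, had 234 and 192 CPM in drones, 656 and 601 CPM in queens and 302 and 352 CPM in workers and differed by −1.56 ± 0.11 from queens and −0.61 ± 0.11 from workers, and its transcripts were used unequally (FDR = 0.0128), with the transcript of 4042 nt holding 67.8% and 69.2% in drones, 45.0% and 42.7% in queens and 53.7% and 54.6% in workers. InR-2, an insulin receptor, lay between the castes at 53.0 and 51.7 CPM in drones, 68.0 and 64.9 CPM in queens and 29.0 and 33.5 CPM in workers. Also lower was Usp (−1.26 ± 0.40, FDR = 0.037), the partner of the ecdysone receptor, at low counts; the call was lost when any single library other than drone replicate 1 was left out (FDR between 0.0536 and 0.130).

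The clock gene Cry2 had 101 and 108 CPM in drones, 58.6 and 55.2 CPM in queens and 57.7 and 64.0 CPM in workers and was higher than in both castes (0.83 ± 0.07, FDR = 1e-05), while Per was not called. Dnmt3, the de novo DNA methyltransferase, had 40.2 and 41.5 CPM in drones, 62.8 and 58.7 CPM in queens and 75.4 and 75.8 CPM in workers and was lower than in both (−0.73 ± 0.08, FDR = 4.6e-05), the one call among 3 methylation genes. Argk, arginine kinase, which buffers cellular ATP, had 9393 and 10203 CPM in drones, 3779 and 3766 CPM in queens and 5695 and 5983 CPM in workers and was higher than in both. The noncoding RNAs Ancr-1 (7988 and 8672 CPM in drones, 10971 and 11278 CPM in queens and 13452 and 13220.3 CPM in workers) and Kakusei (2.30 and 1.97 CPM in drones, 8.14 and 7.27 CPM in queens and 5.24 and 5.33 CPM in workers) were lower than in both, 2 of 3 tested. The Hox gene Antp was −1.89 against queens (FDR = 2.9e-05) and −0.08 against workers (FDR = 0.82), and Ubx passed against queens only. LOC724946, described above, was the 1 called of 6 P450 genes in the sex contrast. Beside the short lists of this paragraph, 29.9% of all genes were called in the sex contrast and 16.5% were shared. Another, CYP6AQ1, placed drones between the castes, with 8.38 and 9.55 CPM in drones, 4.07 and 4.44 CPM in queens and 16.1 and 14.7 CPM in workers (1.07 ± 0.21 against queens, FDR = 0.0031, and −0.79 ± 0.21 against workers, FDR = 0.018). Of 6 ribosomal protein genes edgeR and DESeq2 called 0 in the sex contrast, with 2 higher and 0 lower at an unadjusted p below 0.05 in edgeR, and limma called 1 lower on each TPM scale. RpL35 had 353 and 333 CPM in drones, 274 and 235 CPM in queens and 349 and 374 CPM in workers. Rps14 gave opposite answers in the castes, with 0.39 ± 0.09 against queens (FDR = 0.0092) and −0.39 ± 0.09 against workers (FDR = 0.011); CYP6AQ1 and Rps14 were picked out after their values were seen. Of 7 respiratory genes edgeR and DESeq2 called 0 in the sex contrast, with 0 higher and 0 lower at an unadjusted p below 0.05, and the sex contrast of Uqcr11 was 0.02 ± 0.09 (FDR = 0.89).

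Chemoreceptor genes were near the limit of these libraries. Of 36 placed, 25 passed the count filter, 3 were higher and 2 lower in drones in the sex contrast, near or below the 14.3% and 15.6% of all genes, and each of these passed against 1 caste only. Or41 had 2.87 and 3.43 CPM in drones, 0.148 and 0.151 CPM in queens and 1.88 and 1.96 CPM in workers, and Or35 had 6.70 and 5.19 CPM in drones, 9.50 and 7.37 CPM in queens and 19.1 and 17.8 CPM in workers, so drones differed from queens in the first and from workers in the second. Or37 was lower (FDR = 0.027) and Or5, at under 1 CPM and past the count filter through drone libraries only, higher (FDR = 0.02); the Or37 call was lost without drone replicate 2, queen replicate 1, queen replicate 2 or worker replicate 2 (FDR between 0.0693 and 0.105), and the Or5 call without drone replicate 1 (FDR = 0.0692) or queen replicate 1 (FDR = 0.0841).

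**Figure D4:**
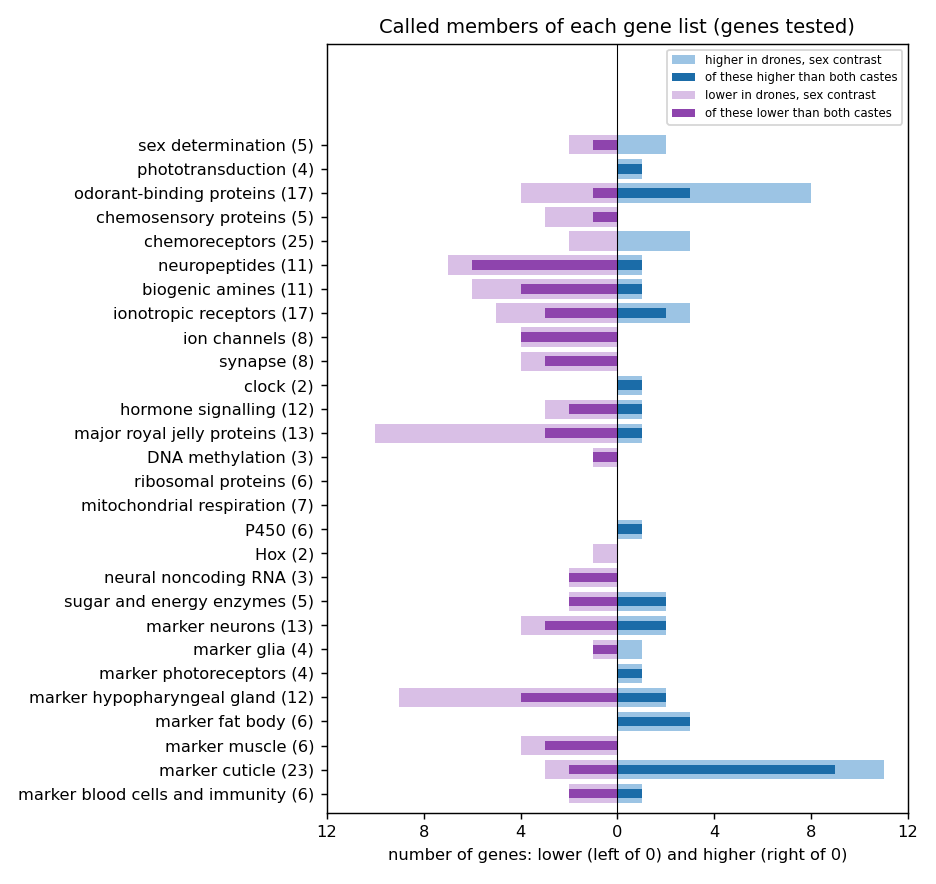
Number of genes (x axis, from 0 outwards) called higher (right) or lower (left) in drones in the sex contrast for each gene or marker list (y axis, number tested in brackets), with the shared ones as inner bars. Cuticle genes reach 11 to the right and 3 to the left, and neuropeptides 1 to the right and 7 to the left. Of all genes 14.3% were higher and 15.6% lower.

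Markers of further tissues were counted in the same libraries. Of all genes, 14.3% were higher and 15.6% lower in drones in the sex contrast, and 7.56% and 8.97% were shared. The 6 muscle markers summed to 117 and 102 CPM in drones, 1087 and 988 CPM in queens and 172 and 221 CPM in workers; 4 were lower, and TpnT, troponin T, had 43.2 and 34.2 CPM in drones, 677 and 579 CPM in queens and 88.5 and 122 CPM in workers. The 6 fat body markers summed to 2459 and 2633 CPM in drones, 1594 and 1569 CPM in queens and 1639 and 1850.3 CPM in workers, and Tsf1 (transferrin), Hex70a and Hex70c were higher than in both castes; the Hex70a call was lost without drone replicate 1 (FDR = 0.178). The other 3 fat body markers were not called in the sex contrast, and the median of the list was 0.17 beside 0.02 over all genes. Vg, described below, is among these 3 and was lower in drones than in queens. The 6 immunity genes summed to 285 and 297 CPM in drones, 254 and 229 CPM in queens and 2538 and 2648 CPM in workers, and 1 was higher and 2 were lower. Def1 (defensin-1) had 3.86 and 3.32 CPM in drones, 13.8 and 13.4 CPM in queens and 2343 and 2442 CPM in workers and PPO (prophenoloxidase) 21.2 and 21.3 CPM in drones, 34.2 and 34.5 CPM in queens and 64.9 and 61.5 CPM in workers, both lower than in both castes, and PGRP-S3 had 116 and 127 CPM in drones, 49.8 and 48.3 CPM in queens and 13.9 and 14.6 CPM in workers, higher than in both. Neuron and glial markers, whose sums are given above, were present in all libraries, and of the glial ones Gat-a was higher (0.49 ± 0.06) and GlnS, glutamine synthetase, lower (−0.68 ± 0.07). The muscle marker TpnCIIIb and the cuticle genes CPR11, CPR12, CPR18 and CPR21 did not pass the count filter and were not tested. The part of these tissues in the sex contrast was not tested.

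To see where the castes disagree, genes were ordered by the queen minus worker difference, which tests whether the sex difference is unequal between castes. LOC107963996 (chr16:4767669-4768984, plus strand) had 20.7 and 18.5 CPM in drones, 723 and 739 CPM in queens and 4.18 and 3.51 CPM in workers, so that drones were −5.20 against queens (FDR = 5.4e-11) and 2.34 against workers (FDR = 4.6e-07). LOC410406 and LOC413112 kept that order, queens above drones above workers. LOC410406 had 5.77 and 7.68 CPM in drones, 32.7 and 27.0 CPM in queens and 0.0819 and 0.561 CPM in workers, and LOC413112 had 17 and 6 counts in drones, 197 and 84 in queens and 0 in both worker libraries. The reverse order held for LOC102653988, with 4.23 and 3.63 CPM in drones, 0.0493 and 0.101 CPM in queens and 12.9 and 12.1 CPM in workers, and for the noncoding RNA LOC102653642, with 5.59 and 6.65 CPM in drones, 0.173 and 0.252 CPM in queens and 13.7 and 15.7 CPM in workers. In the sex contrast, which averages the castes, LOC413112 was not called (FDR = 0.29) and the other 4 were (FDR between 2e-06 and 0.021), as were 33 of the 119 opposite genes in all.

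Other genes parted drones from a single caste. Vitellogenin (Vg, the yolk protein) had 21 and 0 counts in drones, 1109 and 1425 in queens and 1 and 0 in workers, and LOC100577614, which lies beside it, had 8 and 3 counts in drones, 125 and 80 in queens and 1 and 0 in workers. Queens were thus far above both other groups at this pair of neighbours. LOC409631 had 864 and 905 CPM in drones, 9.15 and 7.93 CPM in queens and 730.3 and 800.3 CPM in workers, low in queens and with no call between drones and workers (0.21 ± 0.08, FDR = 0.078). Against workers only, the leading genes were royal jelly proteins. Mrjp1 had 1.70 and 3.84 CPM in drones, 2.57 and 2.27 CPM in queens and 10717 and 11378 CPM in workers, Mrjp3 0.738 and 1.25 CPM in drones, 0.938 and 1.01 CPM in queens and 5065 and 5323 CPM in workers and Mrjp5 0.369 and 0.727 CPM in drones, 0.469 and 0.252 CPM in queens and 2067 and 2204 CPM in workers, and LOC406081 had 0.909 and 1.25 CPM in drones, 1.01 and 1.11 CPM in queens and 3258 and 4149 CPM in workers. The drone minus queen difference was not called at these 4 (FDR between 0.73 and 0.9). The sex contrast called Mrjp1, Mrjp3, Mrjp5 and LOC406081 lower in drones, although drones passed against workers only.

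Among 13 major royal jelly and yellow-family genes, 10 were lower and 1 was higher in drones in the sex contrast, of which 3 and 1 were shared, beside 15.6% lower and 14.3% higher (8.97% and 7.56% shared) of all genes. Mrjp6, Mrjp7 and Y-f were lower than in both castes, Mrjp6 with 0.994 and 0.727 CPM in drones, 1.60 and 1.36 CPM in queens and 251 and 247 CPM in workers, and Y-f with 919 and 980.4 CPM in drones, 1549 and 1514 CPM in queens and 1471 and 1433 CPM in workers. Mrjp8 was higher, with 18.4 and 19.3 CPM in drones, 10.02 and 10.1 CPM in queens and 11.96 and 11.4 CPM in workers. Reads of these closely related genes were divided between them by the authors' software. Mrjp1 to Mrjp9 were also counted among the 12 hypopharyngeal gland markers, which summed to 66.0 and 71.4 CPM in drones, 96.0 and 87.7 CPM in queens and 21469.8 and 22588 CPM in workers; 9 of the 12 were lower and 2 higher in drones in the sex contrast. The part of gland RNA in these differences was not tested.

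**Figure D5:**
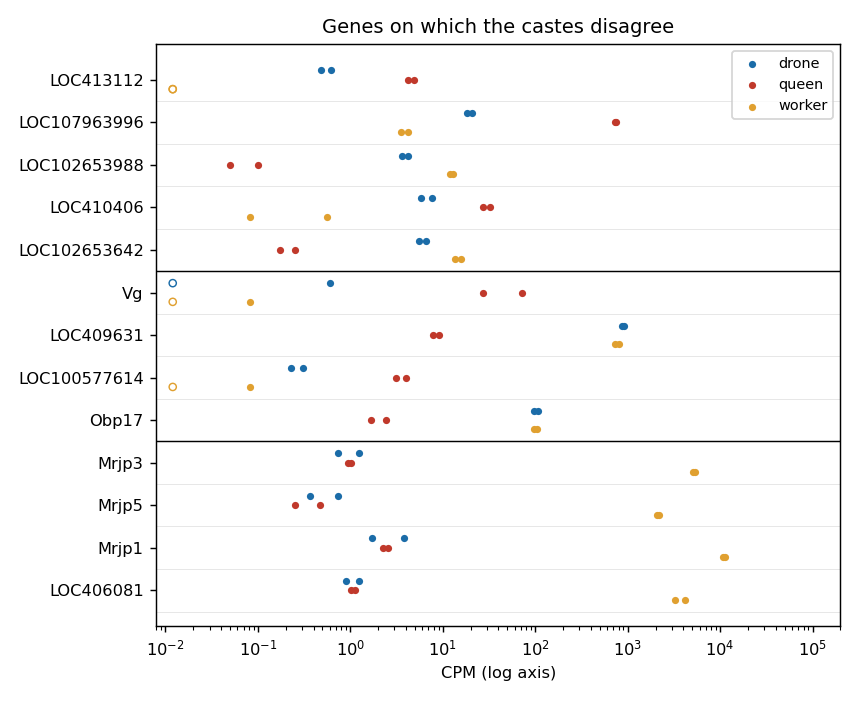
Level in CPM (log x axis) of 13 genes in the drone, queen and worker libraries, for genes with drones between the castes (top 5), different from queens only (middle 4) and different from workers only (bottom 4); open circles at the left edge mark libraries with 0 counts. Drone points lie between the castes in the top block, and at Obp17 and the Mrjp genes they lie on one caste.

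In level, 16.5% of all genes tested were shared and 29.9% were called in the sex contrast. Transcript usage was tested beside level, and most of its calls fell on genes that also differed in level. Of 3894 genes with at least 2 transcripts tested, 281 (7.22%) differed in usage between drones and the mean of the castes, 144 of them also shared in level and 81 not called in the sex contrast for level. The count was 131 without drone replicate 2, 128 without queen replicate 1 and 106 without queen replicate 2. A shift of at least 20 percentage points in 1 transcript against both caste means was found in 77 of the 281. In LOC410821 (chr2:13988911-14000100, plus strand), whose level differed by 0.24 ± 0.07 in the sex contrast (FDR = 0.03), the 5-exon transcript of 2178 nt held 69.0% and 65.7% in drones, 0.359% and 0.283% in queens and 2.23% and 2.08% in workers (usage FDR = 1.9e-14). The 6-exon transcript of 2018 nt, which starts further downstream, held 18.6% and 21.8% in drones, 89.7% and 89.8% in queens and 86.5% and 87.6% in workers. Drones and females thus favoured different transcripts of 1 gene.

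LOC551259 (chr7:8852924-9058966, plus strand), with 25 transcripts tested, had the lowest usage FDR of the named genes (2.1e-21). Its 107-exon transcript held 37.0% and 32.5% in drones, 0.0758% and 0.279% in queens and 0.564% and 0.334% in workers, while the 134-exon transcript of 76350 nt held 3.32% and 3.23% in drones, 36.3% and 33.3% in queens and 23.3% and 23.1% in workers. In LOC412808 the transcript of 4830 nt held 47.2% and 52.7% in drones, 3.03% and 3.99% in queens and 9.85% and 10.3% in workers. In LOC410624 the 10-exon transcript held 28.7% and 32.4% in drones, 6.59% and 8.05% in queens and 14.3% and 14.0% in workers. In LOC409708 the transcript of 1842 nt held 2.87% and 2.61% in drones, 83.8% and 82.6% in queens and 50.6% and 51.0% in workers, and in LOC552651 the transcript of 3575 nt held 12.2% and 9.45% in drones, 44.9% and 48.9% in queens and 51.0% and 55.6% in workers. All 4 had a usage FDR of at most 8.5e-07, and the drone libraries lay outside the range of the 4 female libraries in each. The genes named for usage were chosen by lowest usage FDR among those with a shift of at least 20 percentage points against both caste means. A low FDR and a wide shift therefore follow from the choice. Shares rest on the division of shared reads among transcripts by kallisto, and the gene table gives no role for these loci.

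Shared genes were found on every chromosome, at between 13.2% (chromosome 10) and 20.5% (chromosome 15) of the genes tested there; honey bees have no sex chromosome. Long noncoding RNAs were shared higher at 5.79% and shared lower at 6.88% of 1381, and protein-coding genes at 7.85% and 9.33% of 8811. In 12 places at least 4 neighbouring tested genes moved the same way. The longest run was 6 genes lower in drones at chr7:8440280-8573227, with sex contrasts between −3.40 and −0.71, and a run of 5 genes higher in drones opened with CPR27 at chr4:8805889-8865364, with sex contrasts between 1.48 and 4.38. LOC725547 in that run had 1510.4 and 1422 CPM in drones, 35.1 and 33.9 CPM in queens and 277 and 333 CPM in workers. The gene directly after the end of this run is LOC413112, for which the castes disagreed.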

How the data were processed

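Poly(A) RNA of pooled central brains was sequenced with a directional kit in 2 drone, 2 queen and 2 worker libraries, grouped by the caste in the labels. Per the file headers and the study's methods, the authors ran kallisto in strand-specific mode against annotated transcripts and deposited estimated counts and TPM for each of 28409 transcripts; the kallisto version is not given in the sources used here.

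Transcripts were placed by exon coordinates on RefSeq genes of Amel_HAv3.1 (28232 of them, on 12289 genes), and the estimated counts were summed per gene, without length correction, then rounded to integers. The 10257 genes that reached 5 counts in 2 or more of the 6 libraries were fitted with edgeR 4.0.16 (quasi-likelihood, TMM scaling, R 4.3.3) over 3 groups of 2, with 3 residual degrees of freedom. Contrasts were drone minus the mean of the castes, drone minus each caste, and queen minus worker, each adjusted by Benjamini-Hochberg across the 10257 genes. Drone minus queen and drone minus worker share the drone libraries. Transcript usage was tested with diffSpliceDGE. An exact permutation test of 2 against 4 libraries cannot go below p = 0.0667, so none was used. Python steps used pandas 2.3.3 and figures matplotlib 3.10.9.

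Totals of 7685185 to 44373783 counts set a floor of 3 counts at 0.0740 to 0.421 CPM, and intervals and floors cover counting error only. Replicates differed by more than sampling noise, and p-values measure the spread between pools from one colony line, with 2 per group. On simulated counts for the sex contrast with 200 of 10257 genes changed, 76% of 4-fold and 51.9% of 2-fold changes were recovered, and 3.6% of calls were false. The simulated queens and workers did not differ, and the spread of a gene followed from its mean level alone. In the data 29.9% of genes were called in the sex contrast and 20.9% between the castes, so these rates are not those of the data.

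Named genes were the sex determination genes, the 8 shared genes with the largest smaller fold change in each direction and the 8 of these with a symbol, 5 genes with drones between the castes and 4 for each caste alone, up to 4 called members of each gene list, and 6 genes of transcript usage. The shared genes among them also had to show no overlap between the drone and the female libraries. Other list members were added for illustration. The members and lists were chosen with earlier results of these data known, and some list members were added by name after their values were seen. Alternatives were DESeq2 1.42.0 and its size factors, upper quartile and total scaling, other count filters, limma 3.58.1 on log2(TPM + 1) and log2(TPM + 0.1), single transcripts, thinned counts, removal of the 10 most abundant genes, a replicate block, each comparison's 4 libraries alone, one female group, and each library left out.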

Additional observations from a re-analysis of the deposited data

Results flagged for a closer look

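At 32 named genes the drone minus queen and drone minus worker differences were unequal, by edgeR's test of the queen minus worker difference (FDR below 0.05 over all genes tested), which equals the drone minus worker minus the drone minus queen difference. Values are queen minus worker log2 fold changes, so a positive value means that queens were higher than workers. Those of Vg, LOC413112, LOC100577614, LOC102653899, LOC102655457 and Obp2 rest on a group with few or no counts and are fitted values, not measured folds.

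Among genes higher in drones than in both castes, these were LOC102655457 (−3.59), Obp14 (−2.21), LOC107963964 (−1.58), Obp13 (3.53), Blop (−3.91), CPR5 (−0.59), CPF2 (−2.71) and CPF1 (−3.44), so drones stood farther from queens than from workers at all but Obp13. Among genes lower than in both, they were LOC102653899 (4.53), LOC552829 (0.57), LOC413083 (2.85), AGLU2 (−1.32), LOC726625 (2.75), LOC102655158 (1.58), CSP1 (−0.42), Crzr (−0.69), Qbp-1 (0.40), Obp2 (−6.24) and Def1 (−7.45), and the caste farther from drones was the queen at LOC102653899, LOC552829, LOC413083, LOC726625, LOC102655158 and Qbp-1, and the worker at the others.

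With drones between the castes, the values were LOC413112 (9.57), LOC107963996 (7.54), LOC102653988 (−7.41), LOC410406 (6.79) and LOC102653642 (−6.14). They were Vg (9.75), LOC409631 (−6.47), LOC100577614 (5.96) and Obp17 (−5.55) at genes called against queens only, and Mrjp3 (−12.39), Mrjp5 (−12.37), Mrjp1 (−12.13) and LOC406081 (−11.78) at genes called against workers only. Named genes of the last 3 kinds were chosen by the size of this same difference, so for them it is a description.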

How the results depend on the processing

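Of 2204 values of 107 named genes under the alternatives, 2061 kept their direction and side of the threshold, 131 lost the call, 1 gained it and 11 reversed; 54 genes kept both throughout. On log2(TPM + 1) with limma, genes higher and lower in drones were 778 and 3274 in the sex contrast, 667 and 3430 against queens, 864 and 2499 against workers, and 459 and 1997 shared. On log2(TPM + 0.1) they were 762 and 3249, 634 and 3318, and 427 and 2039 shared, with 2529 lower than workers. Tested as single transcripts, 805 were higher and 1103 lower than queens, 875 and 870 than workers, 451 and 583 shared, 54 opposite, 303 queen only and 280 worker only. With the 4 female libraries as one group the sex contrast called 523 and 576.

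Leaving out 1 library gave 844 to 1444 genes higher and 965 to 1637 lower than queens, 906 to 1432 higher and 964 to 1546 lower than workers, 588 to 747 shared higher, 584 to 936 shared lower, 74 to 105 opposite, 338 to 780 queen only, 250 to 636 worker only, and 106 to 412 genes of transcript usage. Of the 1695 shared genes, 71.7% (without queen replicate 1) to 99.1% (5 counts in at least 3 of 6 libraries) were also shared under the alternatives for which the overlap was counted, which left out single transcripts and the one female group. The causes were not tested.

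Reversed values were Snf at 0.63 without worker replicate 2 (range −4.37 to 0.63 without 1 library), Usp at 0.28 as single transcripts, RpL35 at −0.10 on log2(TPM + 1) and on log2(TPM + 0.1), and Uqcr11 at −0.0061 by upper quartile, −0.0955 by library totals, −0.18 on both TPM scales and −0.0497 to 0.16 without 1 library, negative without drone replicate 1 (−0.0227), queen replicate 2 or worker replicate 2. None of these 4 but Usp was called.

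Library numbers shared only a number: deviations of same-numbered libraries correlated at −0.375 (drone, queen), −0.258 (drone, worker) and −0.0244 (queen, worker). With the replicate block, 649 and 769 genes were shared and 156 genes were called for transcript usage. With the pairing crossed, an alternative chosen after seeing the data, 865 and 1022 were shared.

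Depth limits genes near 3 counts, above all in worker replicate 2, where 3 counts equal 0.421 CPM.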

Other observations

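Of 28409 deposited transcripts, 177 were placed on no gene and entered no comparison. They held 8.87% and 9.05% of the estimated counts in drones, 9.41% and 10.4% in queens and 7.42% and 7.26% in workers, and the 10 most abundant of them held between 7.14% and 10.2% per library.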
